A study of Mus musculus with 24 samples.

Results

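The striatum of RGFP109-treated R6/1 mice was compared with that of vehicle-treated wild type mice, to see which differences of the disease model were still present at the end of the treatment. The comparison holds every gene with a group value of at least 1 FPKM (fragments per kilobase of exon, scaled to the number of mapped fragments) in WT-vehicle or in R6/1-RGFP109, namely 13894 of the 24340 genes found in all 6 tables of the series. R6/1 mice are hemizygous carriers of the first exon of human HTT with a long CAG repeat, driven by the human HTT promoter, on a C57BL/6J background, and their controls were wild type littermates. RGFP109, an inhibitor of the histone deacetylases HDAC1 and HDAC3, was given in saline with dimethyl sulfoxide, at 30 mg/kg, by intraperitoneal injection on 5 days a week for 3 weeks. Vehicle mice received the solvent alone. All mice were male, as the study states. Treatment began at 11 to 14 weeks of age and ended at 14 to 17 weeks, and striatum was taken 18 h after the last injection. The WT-vehicle group had 5 mice, R6/1-RGFP109 had 7, R6/1-vehicle had 6 and WT-RGFP109 had 6. The tables give 1 pooled value per group and no value per mouse, so no difference below carries a replicate error, an interval or a test, the depth is unknown, and sizes are described only. Levels in R6/1-vehicle and WT-RGFP109 come from other tables and were brought onto the scale of the first comparison with the WT-vehicle values that the tables share.

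Huntington's disease mainly affects the striatum, where nearly all neurons are GABAergic spiny projection neurons. Those of the indirect pathway express the dopamine receptor Drd2, the adenosine receptor Adora2a and enkephalin, and those of the direct pathway express the dopamine receptor Drd1, substance P and dynorphin. Loss of the RNA of these receptors, peptides and signaling proteins is a well known early feature of the disease and of its mouse models, and histone deacetylases are studied as drug targets because they help to silence genes. Bulk tissue was measured, so fewer cells of a type and less RNA per cell cannot be told apart.

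A gene was called lower or higher when the log2 ratio of the 2 group values, each with 0.05 FPKM added, was beyond 0.5, a fold of 1.41. Lower levels in R6/1-RGFP109 than in WT-vehicle were found for 1498 of the 13894 genes (10.8%) and higher levels for 576 (4.15%), with a median log2 ratio over all genes of -0.0001. Beyond a log2 ratio of 1, 453 genes were lower and 194 were higher. Of the genes past the fold, 72.2% were lower. The rule for naming genes gave mostly very short genes, 50 of 61, such as Snord99 and Mir6936, which were listed at 0 in R6/1-RGFP109 (241 and 185 FPKM in WT-vehicle), and Mir377, listed at 0 in WT-vehicle (105 FPKM in R6/1-RGFP109). All 15 genes with the lowest ratio were listed at 0 in R6/1-RGFP109, and all 15 with the highest were listed at 0 in WT-vehicle, so that no fold is given for them. Of 167 genes listed at 0 in either group, 165 had a RefSeq span under 300 bases or, without a RefSeq match, the name of a small RNA.

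The 13454 genes without these short genes are therefore described from here on, a choice made after the values were seen. Among them 1338 (9.94%) were lower and 394 (2.93%) were higher in R6/1-RGFP109, and 77.3% of the genes past the fold were lower. Beyond a log2 ratio of 1, 351 genes were lower and 42 higher. The share that was lower was largest at both ends of the expression range. It was 15.3% of 3537 genes with 1 to 5 FPKM in the higher group, 6.95% of 5192 genes with 5 to 20 FPKM, 7.54% of 3938 genes with 20 to 100 FPKM and 17.5% of 787 genes with 100 FPKM or more. The share that was higher went from 6.67% in the lowest class to 0.381% in the highest, where only 3 genes were higher.

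**Figure D1:**
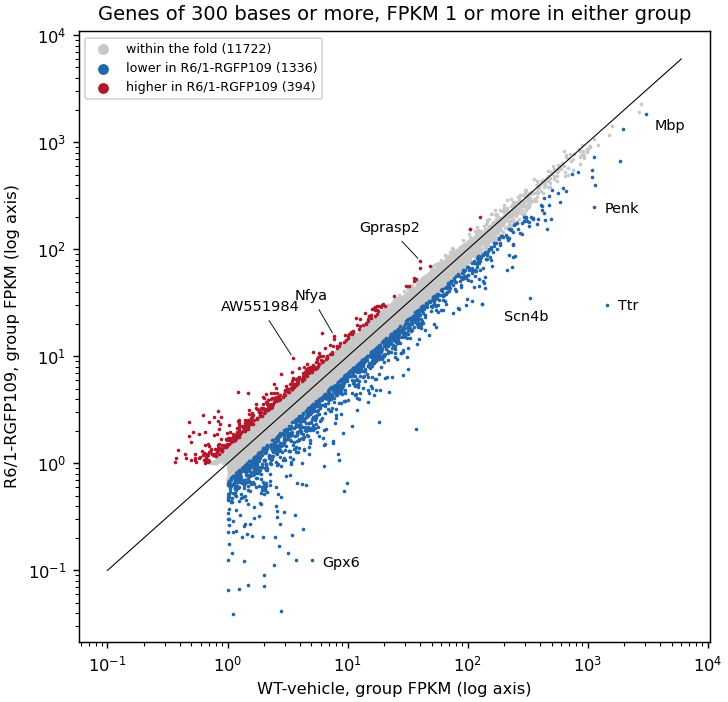
Group FPKM in WT-vehicle (x axis) and R6/1-RGFP109 (y axis) for genes of 300 bases or more, on log axes, with 1 point per gene and the line of equality. Blue points (lower by a log2 ratio over 0.5) outnumber red points (higher), and Ttr, Scn4b, Penk and Gpx6 lie far below the line. Defb9 and Ins2, listed at 0 in R6/1-RGFP109, cannot be shown on log axes.

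The tissue showed defining striatal genes at high level, with Penk at 1117 and Ppp1r1b at 1152 FPKM in WT-vehicle. Genes of the indirect pathway were far below wild type after treatment. Of the 10 genes on that list, 8 were lower and none was higher, with a median log2 ratio of -1.44, against -0.0006 over the 13454 genes. Penk (chr4:4133536-4138445, mm10), which encodes the enkephalin precursor, stood at 1117 FPKM in WT-vehicle, 1115 in WT-RGFP109, 277 in R6/1-vehicle and 247 in R6/1-RGFP109. Both R6/1 groups thus stood at about the same low level and both wild type groups at the same high one. Adora2a (chr10:75316877-75334792), an adenosine receptor, had 132 FPKM in WT-vehicle, 119 in WT-RGFP109, 33.7 in R6/1-vehicle and 31.1 in R6/1-RGFP109, which left treated R6/1 mice at 23.5% of WT-vehicle. Drd2 had 97.8 FPKM in WT-vehicle and 34.6 in R6/1-RGFP109, or 35.4% of WT-vehicle, with 41.1 in R6/1-vehicle. Ptprv, a receptor-type tyrosine phosphatase, had the lowest ratio of the list, with 8.42 FPKM in WT-vehicle and 1.08 in R6/1-RGFP109 (-2.91). The orphan receptors Gpr6 and Gpr52 had log2 ratios of -1.54 and -1.38, and the delta opioid receptor Oprd1 of -1.37. The transcription factor Sp9 (-0.17) and the kainate receptor subunit Grik3 (-0.22) were the members within the fold.

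Genes that both kinds of projection neuron use were low as well. Of 20 such genes, 16 were lower and none was higher, with a median log2 ratio of -1.14. Scn4b (chr9:45139042-45154061), a sodium channel beta subunit, had 327 FPKM in WT-vehicle, 289 in WT-RGFP109, 40.9 in R6/1-vehicle and 35.3 in R6/1-RGFP109, so that treated R6/1 mice had 10.8% of the WT-vehicle level. Ppp1r1b, which encodes DARPP-32, the inhibitor of protein phosphatase 1 in dopamine signaling, had 1152 FPKM in WT-vehicle and 398 in R6/1-RGFP109 (-1.53), with 448 in R6/1-vehicle. The GTPase regulator Rgs9 (-1.71), the guanine nucleotide exchange factor Rasgrp2 (-1.66), the small GTPase Rasd2 (-1.52) and the calcium sensor Hpca (-1.20) followed. Members of the list that encode transcription factors differed less, with log2 ratios of -0.64 for Rarb, -0.55 for Bcl11b, -0.45 for Foxp1, -0.36 for Meis2, -0.33 for Dlx6 and 0.18 for Foxp2. Rxrg, a retinoid receptor, was the exception at -1.19.

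Direct pathway genes were divided. Of 10 genes, 4 were lower and 1 was higher, with a median log2 ratio of -0.10. Drd1 had 57.1 FPKM in WT-vehicle, 60.4 in WT-RGFP109, 28.6 in R6/1-vehicle and 26.2 in R6/1-RGFP109 (-1.12). The muscarinic receptor Chrm4, which acts in the same cells, went from 41.0 to 18.3 FPKM (-1.16), and prodynorphin, Pdyn, from 56.2 to 37.3 (-0.59). Tac1, the substance P precursor, lay within the fold at 215 FPKM in WT-vehicle and 182 in R6/1-RGFP109 (-0.24). Isl1, a transcription factor of these neurons, was higher, with 4.53 FPKM in WT-vehicle and 7.41 in R6/1-RGFP109 (0.71).

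**Figure D2:**
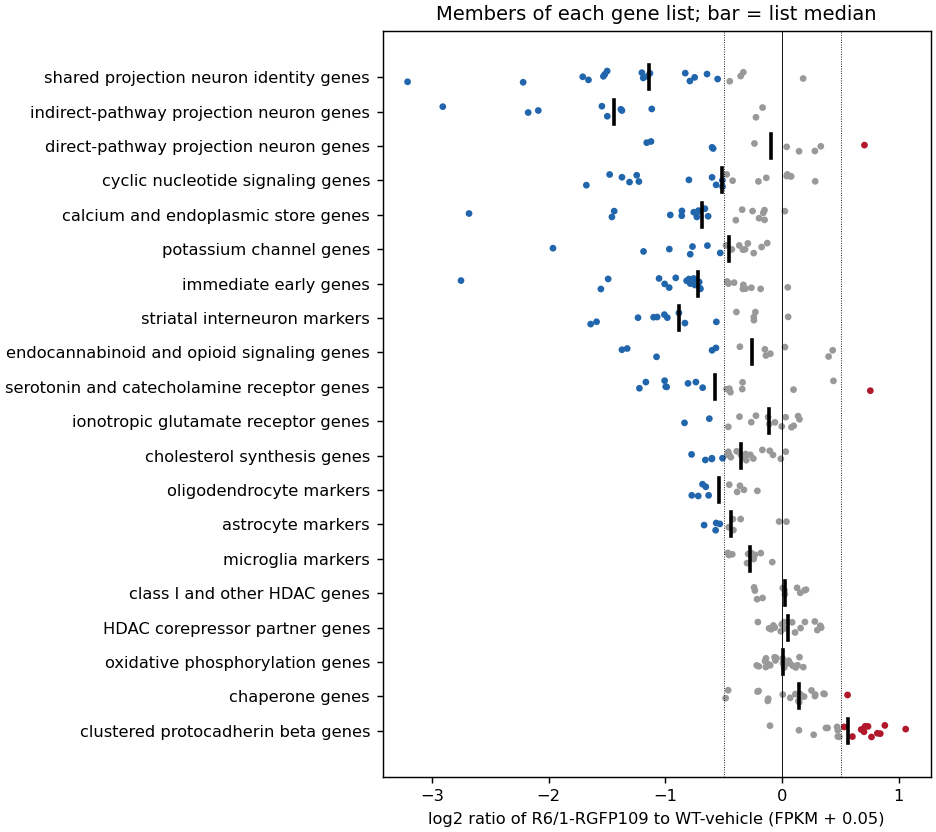
Log2 ratio of R6/1-RGFP109 to WT-vehicle (x axis) for the members of 20 gene lists (rows), with 1 point per gene, blue where lower and red where higher past the dotted lines at 0.5, and a black bar at each list's median. Shared and indirect pathway projection neuron, interneuron and immediate early genes lie mostly left of 0, direct pathway genes lie on both sides, genes for deacetylases and oxidative phosphorylation lie around 0, and the protocadherin beta genes lie to the right.

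The promoters of 3 low genes are shown because they hold a cAMP response element, the site through which cAMP and calcium signals act on many neuronal genes. The letters TGACGTCA were searched on both strands, which read the same, from 250 bases before to 50 bases after the transcript starts of RefSeq (GRCm38.p6). Of 28 projection neuron genes and 16 immediate early genes that were lower, 3 have a promoter that holds them. The letters stand in 588 of all 32851 promoters (1.79%) and in 378 of 12117 promoters (3.12%) of genes within the fold. Promoters were found for only 21 of the 28 and 10 of the 16 genes, under 80%, so that a comparison of shares is void. Capitals mark the element, which begins 78 bases before the start in Gpr6 (chr10:41072241-41072540, minus strand), 143 bases before it in Dusp1 (chr17:26508423-26508722, minus strand) and 166 bases before it in Btg2 (chr1:134079106-134079405, minus strand).
Gpr6: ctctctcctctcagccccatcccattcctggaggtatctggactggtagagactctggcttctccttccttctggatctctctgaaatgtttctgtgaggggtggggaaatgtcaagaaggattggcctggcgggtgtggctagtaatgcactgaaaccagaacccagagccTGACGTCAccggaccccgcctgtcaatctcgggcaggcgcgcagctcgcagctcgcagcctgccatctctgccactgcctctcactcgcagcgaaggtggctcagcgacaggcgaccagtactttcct
Dusp1: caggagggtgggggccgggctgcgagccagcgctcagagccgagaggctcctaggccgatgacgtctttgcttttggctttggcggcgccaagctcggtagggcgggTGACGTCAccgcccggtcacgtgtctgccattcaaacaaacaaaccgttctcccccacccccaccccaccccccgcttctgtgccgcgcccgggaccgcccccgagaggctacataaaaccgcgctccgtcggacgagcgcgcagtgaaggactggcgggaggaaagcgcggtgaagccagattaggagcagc
Btg2: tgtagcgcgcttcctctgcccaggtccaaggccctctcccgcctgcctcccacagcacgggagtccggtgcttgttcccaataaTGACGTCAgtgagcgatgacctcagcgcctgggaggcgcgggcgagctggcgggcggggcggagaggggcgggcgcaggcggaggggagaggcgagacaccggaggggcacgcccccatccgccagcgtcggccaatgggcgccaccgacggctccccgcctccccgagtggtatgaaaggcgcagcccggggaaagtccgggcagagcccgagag
Gpr6 had 54.8 FPKM in WT-vehicle, 48.1 in WT-RGFP109, 19.2 in R6/1-vehicle and 18.8 in R6/1-RGFP109. Dusp1, a phosphatase that switches off MAP kinases, had 22.9, 18.0, 10.8 and 11.0 FPKM in the same order, and Btg2, an antiproliferative gene, had 8.16, 6.42, 4.55 and 4.86. In each the R6/1 groups lay below the wild type groups. The deposited interval of Gpr6 (chr10:41070493-41071584) ends short of the RefSeq start used for its promoter. A match of letters is a description and does not show that a factor binds there.

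Second messenger genes of the striatum were low in part. Of 20 genes of cyclic nucleotide signaling, 11 were lower and none was higher, with a median of -0.51. Pde10a, the phosphodiesterase typical of projection neurons, had 139 FPKM in both wild type groups, 48.2 in R6/1-vehicle and 43.5 in R6/1-RGFP109 (-1.68). Adcy5, their main adenylyl cyclase, had 221 FPKM in WT-vehicle and 89.3 in R6/1-RGFP109 (-1.31), and Pde1b had 439 and 187 (-1.23). The kinase subunits were not low, with log2 ratios of 0.07 for Prkaca, 0.08 for Prkar1b and 0.28 for Prkacb. Of 20 genes of calcium signaling and stores, 12 were lower and none was higher, with a median of -0.69. Ryr1, a calcium release channel, had 6.30 FPKM in WT-vehicle, 1.01 in R6/1-vehicle and 0.939 in R6/1-RGFP109 (-2.68), while its relatives Ryr2 and Ryr3 had log2 ratios of -0.16 and -0.34. Pcp4, a calmodulin regulator, went from 1853 to 674 FPKM (-1.46), and Itpka, an inositol trisphosphate kinase, from 124 to 45.8 (-1.44). Of 16 potassium channel genes 7 were lower, led by Kcnh4 (-1.96) and Kcnip2 (-1.19), and all 16 had a ratio below 0. The list counts of this and other paragraphs stand against 9.94% lower over all 13454 genes. Among genes with 100 FPKM or more the share was 17.5%.

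Receptor genes are given by family. Of 15 ionotropic glutamate receptor genes 2, Grin2c (-0.84) and Grik2 (-0.62), were lower, a share near that of all genes, and the list's median was -0.11. Of 12 endocannabinoid and opioid genes 5 were lower. Among them Cnr1, the CB1 receptor, had 43.9 FPKM in WT-vehicle and 17.5 in R6/1-RGFP109 (-1.33), and the kappa opioid receptor Oprk1 had 6.90 and 3.24 (-1.08). Of 16 serotonin and catecholamine receptor genes 8 were lower and 1 was higher. Htr1b (-1.22), Adra2c (-1.01) and Htr2a (-0.99) were among the lower ones. The higher one was Drd3, a dopamine receptor of low level in this tissue, with 0.791 FPKM in WT-vehicle, 1.74 in WT-RGFP109, 1.64 in R6/1-vehicle and 1.37 in R6/1-RGFP109, so that it was lowest in WT-vehicle among the 4 groups.

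Immediate early genes, which neurons switch on within minutes of activity, were low in both R6/1 groups. Of the 26 on the list that reached 1 FPKM, 16 were lower and none was higher (median -0.73), and in R6/1-vehicle 21 were lower (median -0.81). Klf4 and Maff stayed under 1 FPKM. Egr2 had 4.48 FPKM in WT-vehicle, 3.51 in WT-RGFP109, 0.600 in R6/1-vehicle and 0.623 in R6/1-RGFP109 (-2.75). Arc, a synaptic plasticity protein, had 75.3, 58.2, 26.7 and 25.6 FPKM in the same order (-1.55). Npas4, an activity-dependent transcription factor, had 17.2, 10.9, 5.44 and 6.08 FPKM (-1.49). Both R6/1 groups lay below both wild type groups for these 3 genes, and WT-RGFP109 lay below WT-vehicle. Nr4a2, an orphan nuclear receptor, was the member that differed most between the R6/1 groups, with 11.3 FPKM in WT-vehicle, 11.9 in WT-RGFP109, 5.18 in R6/1-vehicle and 9.06 in R6/1-RGFP109. Klf10 differed the other way, with 7.97 FPKM in WT-vehicle, 5.90 in R6/1-vehicle and 4.56 in R6/1-RGFP109.

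**Figure D3:**
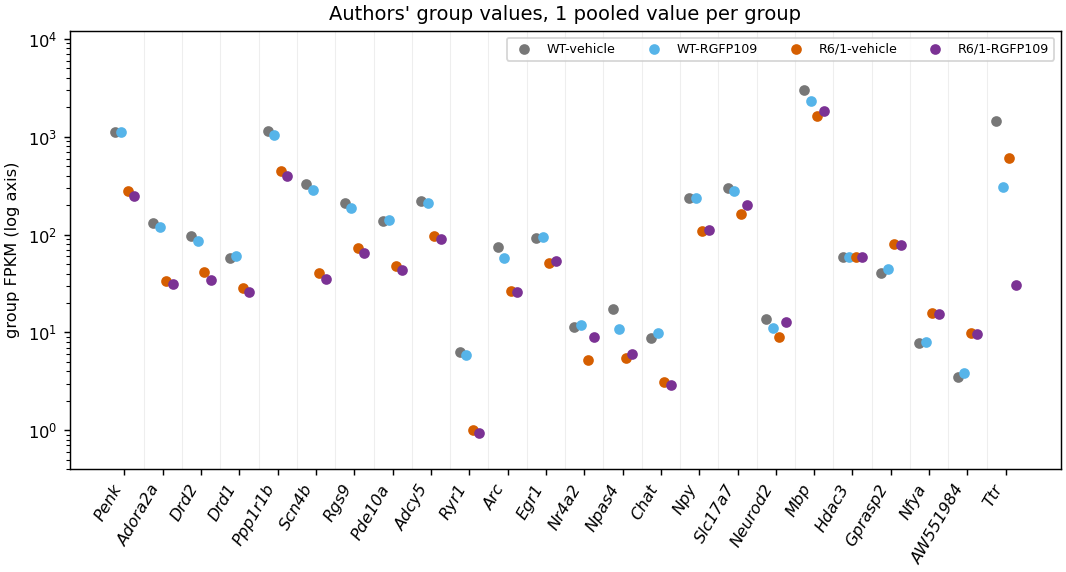
Group FPKM (y axis, log scale) of 24 genes (x axis) in the 4 groups, with 1 point for the authors' pooled value of each group and no error. For Penk, Adora2a, Scn4b or Pde10a the R6/1 points lie together below the wild type points, Hdac3 is level at 58.7 to 59.6 FPKM, and Ttr does not share this pattern, with its WT-RGFP109 point below its R6/1-vehicle point.

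Markers of other cells in the tissue were measured beside these genes. Of 15 interneuron markers 10 were lower and none was higher, with a median of -0.88. Chat, the acetylcholine synthesizing enzyme, had 8.80 FPKM in WT-vehicle and 2.89 in R6/1-RGFP109 (-1.59), neuropeptide Y, Npy, had 239 and 111 (-1.10), and somatostatin, Sst, had 654 and 354 (-0.88). Gad1 and Gad2, the GABA synthesizing enzymes that projection neurons also express, had log2 ratios of -0.23 and 0.05. Of 10 oligodendrocyte markers 5 were lower, and their summed level was 4972 FPKM in WT-vehicle, 3869 in WT-RGFP109, 2814 in R6/1-vehicle and 3161 in R6/1-RGFP109. Myelin basic protein, Mbp, made up most of it, with 3036 FPKM in WT-vehicle and 1844 in R6/1-RGFP109 (-0.72). Of 10 astrocyte markers 4 were lower, and the list stood at 72.2% of its WT-vehicle sum, with the glutamate transporter Slc1a2 lowest (-0.67). No microglia marker of 10 was past the fold (median -0.28), and of 10 endothelial and pericyte markers only Cldn5 was (-0.87). These last counts are near the share of lower genes among all 13454 genes, 9.94%.

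By list median, choroid plexus markers had the largest differences. All 12 were lower in R6/1-RGFP109, with a median log2 ratio of -2.998 and a range from -5.57 to -0.70. Their summed level was 1731 FPKM in WT-vehicle, 427 in WT-RGFP109, 766 in R6/1-vehicle and 109 in R6/1-RGFP109, or 6.32% of WT-vehicle, and none was listed at 0. Transthyretin, Ttr, which choroid plexus epithelium secretes, had 1446 FPKM in WT-vehicle, 307 in WT-RGFP109, 607 in R6/1-vehicle and 30.5 in R6/1-RGFP109. The folate receptor Folr1 (9.81, 2.11, 4.17 and 0.649 FPKM in that order) and klotho, Kl (8.39, 2.55, 4.65 and 1.23 FPKM), ranked the groups in the same way. WT-vehicle was thus the highest of the 4 groups and R6/1-RGFP109 the lowest, and both RGFP109 groups were below their vehicle groups. How much choroid plexus each dissected sample held, and how single mice differed, cannot be seen in pooled values. The part of dissection, drug or genotype in these markers was not tested. Meningeal fibroblast markers summed to 58.2% of WT-vehicle in WT-RGFP109, 87.7% in R6/1-vehicle and 55.5% in R6/1-RGFP109. Ependymal markers stood at 63.6%, 81.3% and 74.8% in the same order. Of the 15 longer genes with the lowest ratios, Ttr, Kcnj13, Folr1, 1500015O10Rik and Kl were among the 7 genes of at least 5 FPKM that were lower here and higher in R6/1-vehicle than in WT-RGFP109, mice that the comparison did not use. Igf2, which is on the insulin-like growth factor list and the meningeal list, had 18.9 FPKM in WT-vehicle, 9.15 in WT-RGFP109, 15.2 in R6/1-vehicle and 7.98 in R6/1-RGFP109, and Igfbp2 had 27.9, 18.2, 16.5 and 10.9. Of the 12 measured genes of the insulin-like growth factor system 5 were lower, and the part that choroid plexus tissue has in Igf2 and Igfbp2 was not tested. The other members, Igfbp4 (-1.44), Igfbp5 (-0.98) and Igfbp6 (-0.66), were low in both R6/1 groups.

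**Figure D4:**
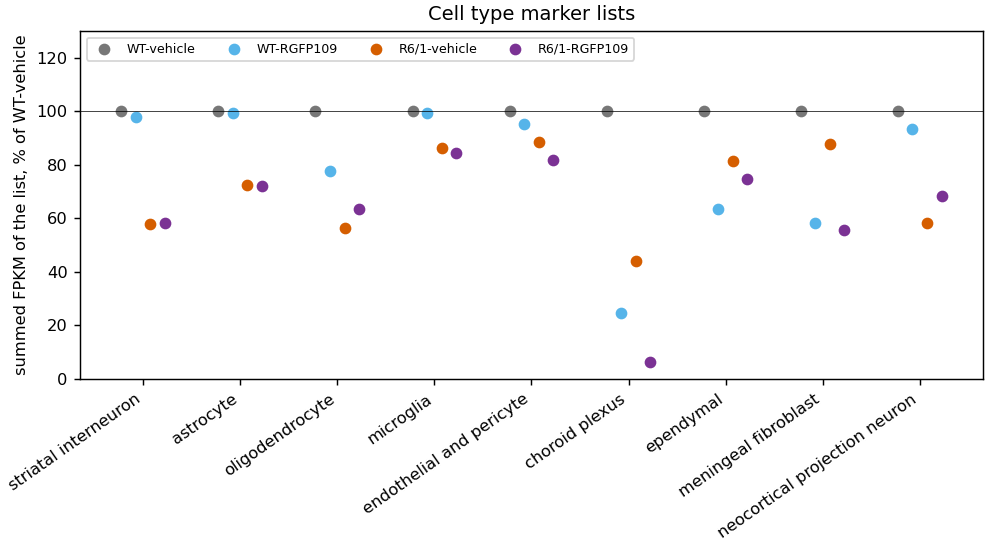
Summed FPKM of 9 cell type marker lists (x axis) in the 4 groups, in percent of WT-vehicle (y axis), with 1 point for each group's pooled value. Interneuron and astrocyte lists separate the genotypes, whereas the choroid plexus list stands at 44.2% in R6/1-vehicle, 24.7% in the wild type group given the drug and 6.32% in R6/1-RGFP109.

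Among genes of at least 5 FPKM, Gpx6 and Abhd11os had the lowest ratios after Ttr, and both R6/1 groups were far below both wild type groups. Gpx6, a glutathione peroxidase (chr13:21312203-21319624), had 5.03 FPKM in WT-vehicle, 4.91 in WT-RGFP109, 0.183 in R6/1-vehicle and 0.126 in R6/1-RGFP109 (log2 ratio -4.85). Abhd11os, a noncoding RNA, had 37.1, 28.7, 1.59 and 2.11 FPKM in the same order (-4.10). It shares its deposited locus with another gene, and the kit and counting used here are not stated to keep strand. Car12, a carbonic anhydrase, had 22.3 FPKM in WT-vehicle and 4.60 in R6/1-RGFP109 (-2.26), the receptor kinase Acvrl1 had 10.8 and 2.26 (-2.23), and Ddit4l, an inhibitor of mTOR signaling, had 9.11 and 1.92 (-2.22). All 15 genes with the lowest ratios were also lower in R6/1-vehicle, which was read against the same WT-vehicle mice. In the mice not used by the comparison 9 of them were lower, and Ttr, Kcnj13, Folr1, 1500015O10Rik and Kl were higher. The largest differences in FPKM itself belonged to Ttr, Mbp, Pcp4, Penk, Fth1, Ppp1r1b, Apoe, Hpca, Nrgn and Cst3, all lower. Of these, the ferritin chain Fth1 (-0.48) and cystatin C, Cst3 (-0.26), were within the fold.

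Genes that were higher in treated R6/1 mice had smaller ratios. AW551984 (chr9:39587396-39604124) led with 3.51 FPKM in WT-vehicle, 3.80 in WT-RGFP109, 9.80 in R6/1-vehicle and 9.68 in R6/1-RGFP109 (1.45). Nfya, a subunit of the CCAAT-binding factor NF-Y (chr17:48386885-48409820), had 7.73, 7.90, 15.7 and 15.5 FPKM in the same order (1.00). Myl6b, a myosin light chain, had 11.6, 12.2, 22.9 and 22.9 FPKM (0.97). In these 3 genes both R6/1 groups lay above both wild type groups and the drug groups stood close to their vehicle groups. Peg3os differed from them, with 6.17 FPKM in WT-vehicle, 12.5 in WT-RGFP109, 13.9 in R6/1-vehicle and 16.5 in R6/1-RGFP109, so that WT-vehicle alone was low. It is an antisense RNA that shares its locus with another gene, and reads of the pair cannot be told apart without strand. Ifi27l2a, an interferon-induced gene, had 3.95 FPKM in WT-vehicle and 7.84 in R6/1-RGFP109 (0.98). All 15 genes with the highest ratios were higher in R6/1-vehicle as well, against the same WT-vehicle mice, and 12 of them in the mice not used here.

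Of these 15 genes 5 lie on the X chromosome, namely Tmsb15b1, Tmsb15b2, Gprasp2, Rab9b and Trmt2b. Tmsb15b1 and Tmsb15b2, thymosin beta genes, are near-identical copies that share a locus, so that reads may be split between them in an uncertain way. Gprasp2, which encodes a protein that binds G protein-coupled receptors, was the most abundant of the 5, with 40.3 FPKM in WT-vehicle, 44.2 in WT-RGFP109, 79.4 in R6/1-vehicle and 77.8 in R6/1-RGFP109 (0.95). Over the whole X chromosome 39 of 466 genes (8.37%) were higher and 21 (4.51%) were lower, against 2.93% and 9.94% of all 13454 genes, and the median log2 ratio was 0.15. Chromosome 18 had nearly the same share of higher genes, 30 of 388 (7.73%), and the other autosomes had 1.30% to 5.35%. The share of chromosome 18 includes the clustered protocadherin beta genes of the next paragraph, of which 11 were higher. The median of each autosome lay between -0.07 and 0.06. In the mice not used by the comparison 31 of the 466 X-linked genes (6.65%) were higher, and 5.93% of those on chromosome 18. All groups held male mice only. The members of a chromosome are not independent, and no test was made of these shares.

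Clustered protocadherin beta genes, which encode cell adhesion proteins that give neurons their surface identity, were the list with the most higher genes. Of the 20 that reached 1 FPKM, 11 were higher and none was lower, with a median of 0.57. Pcdhb12 had 2.45 FPKM in WT-vehicle, 2.68 in WT-RGFP109 and 4.55 in both R6/1 groups (0.88). Pcdhb9 had 4.49, 5.05, 7.33 and 7.21 FPKM in WT-vehicle, WT-RGFP109, R6/1-vehicle and R6/1-RGFP109 (0.68). The summed level of the list was 43.3, 47.5, 65.3 and 64.4 FPKM in the same order, so both R6/1 groups were above both wild type groups. These genes are alike in sequence and lie in a single deposited locus, so that reads may be assigned to the wrong member. Of 7 developmental homeobox, GATA and T-box genes that reached 1 FPKM, Onecut2 was higher (1.33 and 1.99 FPKM, 0.56) and Msx1 lower (3.82 and 1.85 FPKM, -1.03), and 21 others did not reach it. With 2.93% higher and 9.94% lower over all 13454 genes, single genes of 7 say little about this family.

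None of the 11 histone deacetylase genes was past the fold. Over all 13454 genes 9.94% were lower and 2.93% higher, so a list of 11 would hold few such genes at that share. Hdac1 had 3.52 FPKM in WT-vehicle and 3.93 in R6/1-RGFP109 (0.16), and Hdac3 had 58.7 and 59.6 (0.02). None of 18 genes for corepressor partners of these enzymes was past it either, with Sin3b (0.33), Mta3 (0.33) and Rest (0.33) highest. Of 24 oxidative phosphorylation genes none was past the fold, and their ratios lay between -0.22 and 0.18. Of 20 chaperone genes that reached 1 FPKM, Hspa8, a heat shock cognate protein, was the only higher one (105 and 155 FPKM, 0.56). Genes of cholesterol synthesis leaned below wild type, with a median of -0.355 and a summed level of 397 FPKM against 516 in WT-vehicle. Of 21 such genes 5 were lower, among them Insig1 (-0.66), Msmo1 (-0.60), Mvd (-0.60) and Fdft1 (-0.51), and 20 had a ratio below 0.

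The comparison of R6/1-vehicle with WT-vehicle gives the disease differences without the drug, in other R6/1 mice of the same age. It shares the WT-vehicle mice with the comparison described here, so values that are by chance high or low in those 5 mice enter both, and the counts are given as a description. Over the 13465 genes with 1 FPKM in either of its own groups, 1343 (9.97%) were lower in R6/1-vehicle and 424 (3.15%) higher. Of the lower genes 1115 (83.0%) were also lower in R6/1-RGFP109, 227 (16.9%) were within the fold and 1 was higher. Of the higher genes 311 (73.3%) were also higher and 113 (26.7%) were within the fold. Read in the other direction the shares were much alike. Of the 1338 genes lower in R6/1-RGFP109, 1117 (83.5%) were lower in R6/1-vehicle and 221 (16.5%) were within the fold, and of the 394 higher genes 310 (78.7%) were higher there and 82 (20.8%) within the fold. On the lower side, genes past the fold only in R6/1-vehicle and genes past it only in R6/1-RGFP109 were thus about as many, 227 against 221. On the higher side they were 113 against 82.

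The size of the difference was compared in both directions too. For 176 genes with a log2 ratio beyond 1 in R6/1-vehicle and at least 5 FPKM, of which 170 were lower, the median share of that log2 difference closed in R6/1-RGFP109 was 0.552%, with quartiles of -8.91% and 11.3%. At least 20% was closed for 30 of them (17.0%), and 15 (8.52%) were further from wild type by as much. For 166 genes chosen in the same way in R6/1-RGFP109, the difference in R6/1-vehicle was smaller by a median of 6.17%, and 30 of these (18.1%) were nearer to wild type by at least 20% in the mice without the drug. The 9 with the largest shares were Ttr, Igf2, Kl, Trpm3, Folr1, Kcnj13, 1500015O10Rik, Calml4 and Enpp2. Ttr, Kl, Folr1 and Enpp2 are on the choroid plexus list and Igf2 is on the meningeal list. Whether the sets of 30 differ in kind was not tested.

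The 10 genes with the largest share closed were all lower in R6/1-vehicle. Avp, the vasopressin precursor (chr2:130580677-130582541), was first, with 11.1 FPKM in WT-vehicle, 9.73 in WT-RGFP109, 0.985 in R6/1-vehicle and 9.10 in R6/1-RGFP109, and R6/1-vehicle stood apart from the other groups. Nr4a2 followed with 71.8% closed. Cort, the cortistatin precursor, had 16.2 FPKM in WT-vehicle, 13.6 in WT-RGFP109, 4.15 in R6/1-vehicle and 9.52 in R6/1-RGFP109, or 61.0% closed. Gm11549, the serine protease Prss12, 3110035E14Rik, Dkkl1, the sulfotransferase Hs3st2, the peptide precursor Cartpt and the neurexophilin Nxph3 made up the rest, with 44.9% to 64.1% closed. In R6/1-RGFP109 6 of the 10 were lower than WT-vehicle past the fold.

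Neocortical markers were also nearer to wild type in R6/1-RGFP109 than in R6/1-vehicle. The 12 neocortical projection neuron markers summed to 543 FPKM in WT-vehicle, 508 in WT-RGFP109, 318 in R6/1-vehicle and 371 in R6/1-RGFP109. Of these 12, 9 were lower in R6/1-vehicle and 5 in R6/1-RGFP109. Neurod2, a transcription factor of excitatory neurons, had 13.7, 11.1, 8.96 and 12.7 FPKM in the 4 groups in that order. Slc17a7, the vesicular glutamate transporter of cortical neurons, had 298, 277, 161 and 200 FPKM and remained past the fold (-0.57). Of 7 hypothalamic and thalamic markers that reached 1 FPKM, 5 were lower and 1 higher in R6/1-vehicle, and 1 was lower and 1 higher in R6/1-RGFP109. Avp is on this list itself, so the list is not separate from the genes with the largest share closed. Trh, the thyrotropin-releasing hormone precursor, was lower in both R6/1 groups, with 14.8 FPKM in WT-vehicle, 8.70 in WT-RGFP109, 2.16 in R6/1-vehicle and 4.88 in R6/1-RGFP109. Oxt, the oxytocin precursor, was higher (0.479 and 2.45 FPKM, 2.24), with 0.117 FPKM in R6/1-vehicle. None of the defining neocortical markers was at 0 in any group, and the part of neighboring tissue in the genes with the largest share closed was not tested.

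The 10 genes with the smallest share closed lay further from wild type in R6/1-RGFP109 than in R6/1-vehicle. They were Ttr, Folr1, Kcnj13, Ace, Cox8b, Hbb-bt, Dmkn, Rdh5, the joint entry of Hba-a1 and Hba-a2, and Car12. Ttr and Folr1 are on the choroid plexus list, which stood at 6.32% of its WT-vehicle sum. Hbb-bt, an adult beta globin, had 23.4 FPKM in WT-vehicle, 21.6 in WT-RGFP109, 9.61 in R6/1-vehicle and 6.36 in R6/1-RGFP109. Ace, the angiotensin converting enzyme, had 11.95, 5.81, 5.64 and 3.13 FPKM in the same order. The part of choroid plexus and of blood in these genes was not tested.

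Genes that differed little in R6/1-vehicle were also read in R6/1-RGFP109. Genes such as Ttr, low in R6/1-vehicle and lower still in R6/1-RGFP109, do not enter here. Among genes of at least 5 FPKM with a log2 ratio within 0.25 in R6/1-vehicle, the 10 largest ratios were all below 0, and 8 of them were past the fold. Nr2f2, a nuclear receptor, had 5.59 FPKM in WT-vehicle, 4.32 in WT-RGFP109, 4.95 in R6/1-vehicle and 3.06 in R6/1-RGFP109 (-0.86). Clic6, on the choroid plexus list, had 9.93, 6.92, 9.31 and 6.08 FPKM (-0.70), and Gadd45b, a stress response gene, had 13.9, 11.5, 11.7 and 9.10 (-0.61). E030003E18Rik (-0.66), Snhg9 (-0.64), Ifitm2 (-0.60), Slc29a4 (-0.56) and Lst1 (-0.51) were the others past the fold. Of the 10 genes 8 were also lower in WT-RGFP109 than in WT-vehicle. In the mice not used by the comparison, R6/1-vehicle against WT-RGFP109, 8 had a ratio above 0.

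The comparison of R6/1-vehicle with WT-RGFP109 shares no mouse with the one described and is an R6/1 to wild type comparison of its own, in which the wild type mice had the drug. Over the 13454 genes 1105 (8.21%) were lower and 388 (2.88%) higher in it. Of the 1338 genes lower in R6/1-RGFP109 than in WT-vehicle, 876 (65.5%) were lower there, 417 were within the fold, 45 were higher, and 1234 (92.2%) had a ratio below 0. Of the 394 higher genes 190 (48.2%) were higher, 201 were within the fold, 3 were lower, and 377 (95.7%) had a ratio above 0. Across the 13452 genes with no group at 0 the log2 ratios of both comparisons had a Pearson correlation of 0.737 and a Spearman correlation of 0.803. Genes are not independent, and the tissue dissected and the sequencing pools are common to both. All 8 indirect pathway genes that were past the fold in R6/1-RGFP109 had ratios in these other mice between -2.55 for Ptprv and -0.80 for Plxdc1.

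**Figure D5:**
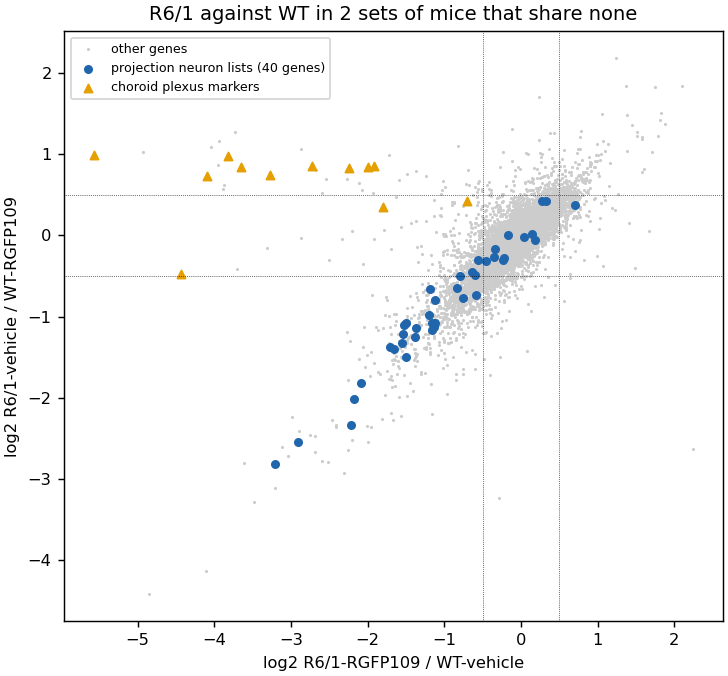
Log2 ratio of R6/1-RGFP109 to WT-vehicle (x axis) and of R6/1-vehicle to WT-RGFP109 (y axis), with 1 point per gene and dotted lines at 0.5. Many projection neuron genes (blue) lie along the diagonal in the lower left, while those of the direct pathway lie on both sides of 0. Choroid plexus markers (orange) reach the far left, with 9 of 12 above the upper line.

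Of the 48 genes with opposite calls in these comparisons 45 were lower in R6/1-RGFP109, and 9 are on the choroid plexus list. The 7 with at least 5 FPKM were Ttr, Kcnj13, Folr1, 1500015O10Rik, Kl, Calml4 and Igf2, named after their values were seen. Ttr had a log2 ratio of -5.57 against WT-vehicle and of 0.99 in the other mice. The 12 choroid plexus markers had a median of 0.83 in the other mice, where 9 were higher and none was lower.

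At the limit of 1 FPKM, the genes just inside were Tspear (1.00 FPKM in WT-vehicle and 0.458 in R6/1-RGFP109), Cdh12 (0.796 and 1.00) and Ssc5d (1.00 and 0.346). Those just outside were 4833418N02Rik (1.00 and 0.832 FPKM), Zim1 (1.00 and 0.819) and Kank4 (0.999 and 0.778).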

How the data were processed

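Striatal RNA of 24 mice in 4 groups was sequenced as single 51 bp reads from TruSeq libraries. The authors aligned the reads to mm10 RefSeq transcripts with STAR 2.5.0b and computed FPKM with Cufflinks 2.2.1. They deposited 6 Cuffdiff tables, 1 for each pair of groups, with 1 pooled FPKM value per group, scaled within the pair, and columns of fold changes, test statistics, p-values and q-values of their own comparisons, which were not used. No per-sample column was left unused in these tables. Groups are those of the labels.

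Members were genes with at least 1 FPKM in WT-vehicle or R6/1-RGFP109. Ratios were log2 with 0.05 FPKM added, which understates the change of low genes, and calls needed an absolute value over 0.5. Each ratio came from the table of its pair. Levels in R6/1-vehicle and WT-RGFP109 were multiplied by 1.0025 and 1.038, the median ratios of the WT-vehicle columns, to bring 4 groups onto the same scale. With 1 value per group no test, interval or detection limit was possible, and the depth is unknown. How the replicates differed, and how the 2 sequencing pools entered, cannot be seen in pooled values. Values per library, which the study gives apart from these tables, were not used here.

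The members and gene lists were chosen with earlier results of these data known. Named genes were, among those of at least 5 FPKM, the 15 lowest and 15 highest ratios, the 10 largest FPKM differences, the 10 largest and 10 smallest shares of the disease difference closed (1 minus the ratio of log2 ratios, for genes beyond 1 in R6/1-vehicle), the 10 largest ratios of genes within 0.25 in R6/1-vehicle, list members, and 3 genes on each side of 1 FPKM. The rule was repeated without genes of a RefSeq span under 300 bases. Promoters of up to 6 list genes with a full cAMP response element were to be printed. Starts of the deposited loci, which join overlapping genes, were raised by 1; 22.3% of the longer members share a locus with another gene. Figures were drawn with matplotlib 3.10.9; ratios and counts came from pandas 2.3.3 and numpy 2.4.6, correlations from scipy 1.17.1, under Python 3.11.15. Some genes that the rule names are not reported here.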

Additional observations from a re-analysis of the deposited data

How the results depend on the processing

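The counts of genes lower and higher in R6/1-RGFP109, of disease differences that remained, and of those found in the mice not used by the comparison were recomputed under 7 alternatives. Of 42 counts 21 were within 1.5 times the reported ones, including all under centring of each table at its median, under group values taken from the other tables, and, as chosen after the values were seen, under genes of 300 bases or more only, where the count of higher genes, 394, came close to that limit. The other counts follow, in the order lower genes, lower disease differences remaining, lower genes in the other mice, and then the same 3 for higher genes. A log2 ratio over 1 gave 453, 330, 218, 194, 101 and 59. A minimum of 5 FPKM gave 947, 794, 600, 314, 217 and 123. No minimum FPKM gave 2794, 2101, 1394, 1205, 764 and 443. These settings change how many genes enter. A pseudocount of 1 FPKM left the lower genes within 1.5 times and gave 366, 231 and 137 for the higher ones. The share of lower disease differences that remained was 81.8% as first counted over all genes, 71.3% at a log2 ratio over 1, 82.3% at 5 FPKM and 76.6% with no minimum. For higher disease differences it was 68.0%, 57.7%, 66.4% and 59.2% in the same order. In the mice not used by the comparison, 61.7% of lower and 42.9% of higher genes were found as first counted. At a log2 ratio over 1 these shares were 48.1% and 30.4%. The direction of a single gene cannot change under a pseudocount, a fold cut, a minimum FPKM or the limit of 300 bases. It could change only under centring and under values from the other tables, and it did not for any of the 70 named genes. The side of the fold differed for 25 at a log2 ratio over 1 and for 3 with a pseudocount of 1 FPKM.

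No paired analysis was possible because the tables hold 1 pooled value per group, so leaving out a mouse was not run either. Pooled values limit every statement to sizes, low genes most.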
